A study of Mus musculus with 8 samples.

Results

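The 9 genes described here encode the receptors for interleukin-17 (IL-17) and interleukin-22 (IL-22), the proteins that carry their signals into the cell, and a small set of genes that respond to them. They were chosen by name, with earlier results of these data known, and all 9 were found in the deposited table, among 22911 genes. They are Il17ra, Il17rc, Traf3ip2, Nfkbiz, Il22ra1, Il10rb, Stat3, Socs3 and Steap4. All of them passed the filter on low counts that left 15098 genes for testing.

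RNA was sequenced from the cheek (buccal) epithelium of adult mice of the inbred strain C57BL/6. The epithelium was released from the oral mucosa with dispase II, an enzyme that cuts it from the tissue beneath, and the epithelial cells were purified by fluorescence-activated sorting. The study set 4 libraries from germ-free mice, raised without any microbes, against 4 from specific pathogen-free (SPF) mice, which have a resident microbiota, all of them untreated. The labels name no genetic change, sex, batch or hour of collection, so a batch or hour that followed the groups cannot be told apart from the group. They do not say whether each library is a separate animal, and p-values measure only the spread between these libraries, which may be technical.

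IL-17A and IL-17F are made mainly by T cells and innate lymphoid cells and act on epithelia through a receptor built from IL-17RA and IL-17RC. The adaptor Act1, encoded by Traf3ip2, binds the receptor tail through a domain that both share and starts NF-kB and mRNA-stabilising signals, and IkB-zeta, encoded by Nfkbiz, is induced and then helps switch on further targets. IL-22 acts through a receptor of IL-22RA1 and IL-10RB and activates the transcription factor STAT3, which induces its own inhibitor SOCS3. In the mouth these pathways are known for defence against the yeast Candida albicans and for upkeep of the epithelial barrier.

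The libraries held 10260264 to 15524731 counts. Levels are given as CPM, counts divided by the library size after TMM scaling, and differences as log2 fold changes of germ-free minus SPF with their standard error (SE). The basal keratin gene Krt5 lay between 10400 and 13300 CPM in all 8 libraries, and the 12 epithelial markers summed to 51900 to 62900 CPM in SPF and 48800 to 57800 CPM in germ-free libraries. Germ-free libraries 2 and 3 stood apart. Germ-free 2 carried Ptprc, the pan-leukocyte marker CD45, at 13.1 CPM, where the other 7 libraries held 0.147 to 1.6 CPM. Germ-free 3 carried the fibroblast collagen gene Col3a1 at 267 CPM, where the other 7 held 0.146 to 27.3 CPM.

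Steap4, a metalloreductase gene that IL-17 induces, fell 4.06-fold in germ-free epithelium, and Stat3 fell 1.23-fold. No difference was detected for the IL-17 receptor subunits or Act1, whose log2 fold changes lay between −0.10 and 0.13. Calls were made with edgeR's quasi-likelihood test where the p-value, adjusted by Benjamini and Hochberg's method over all 15098 genes, was below 0.05. Of the 9 genes 2 were called, both lower in germ-free libraries, where 4.18% of all tested genes were called, 2.33% lower and 1.85% higher. The germ-free and SPF ranges were separate for 4 of the 9 genes, 3 lower and 1 higher, where 13.1% of all tested genes had separate ranges, 6.84% lower and 6.24% higher. The median log2 fold change was −0.18 over the 9 genes and 0.02 over all tested genes. As the 9 genes were chosen with earlier results known, these comparisons cannot show that the set is unusual. In sorted bulk cells, fewer cells of a type and less RNA per cell cannot be told apart.

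**Figure D1:**
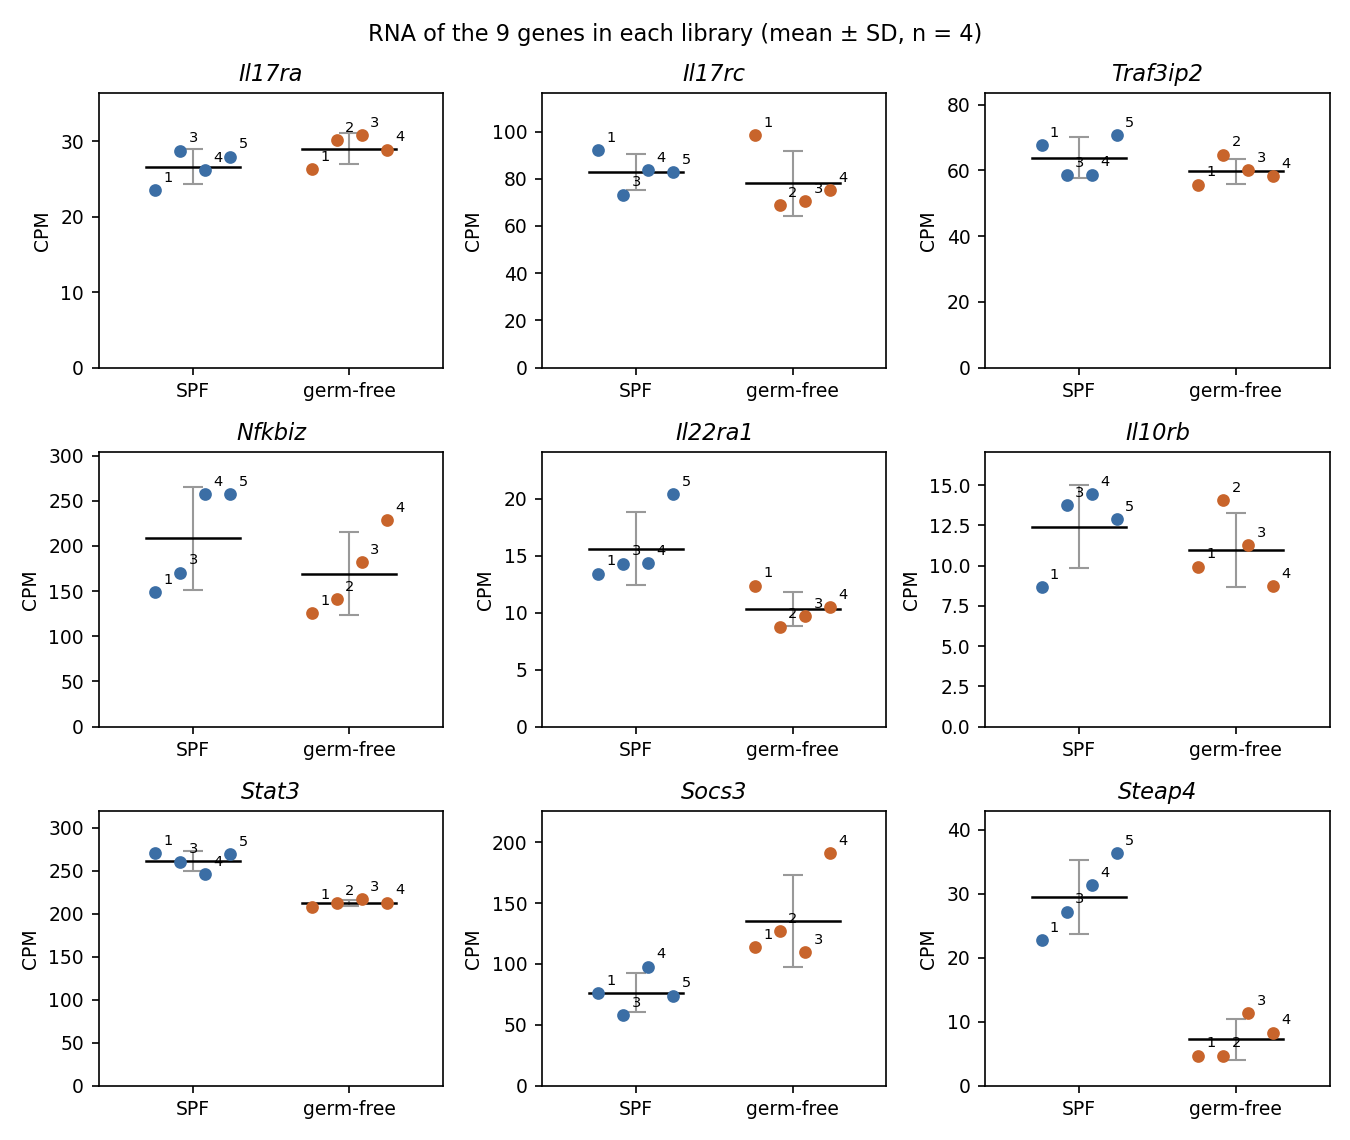
TMM-scaled CPM (vertical axes, from 0) of the 9 genes in the 4 SPF (blue) and 4 germ-free (orange) libraries; numbers beside points are the library numbers, black lines the means and grey bars the SD. Steap4 and Stat3 lay lower in every germ-free library than in every SPF library, as did Il22ra1, and Socs3 lay higher, while the points of Il17ra, Il17rc, Traf3ip2, Nfkbiz and Il10rb overlapped.

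Il17ra encodes the signalling subunit shared by the receptors of several IL-17 cytokines (ENSMUSG00000002897, GRCm38 chromosome 6, 120463247 to 120487559, plus strand). It stood at 23.5, 28.7, 26.1 and 28.0 CPM in SPF libraries 1, 3, 4 and 5 and at 26.3, 30.2, 30.8 and 28.9 CPM in germ-free libraries 1 to 4. The ranges overlapped and every library lay close to the others. The means were 26.6 ± 2.33 and 29.0 ± 2.00 CPM (SD, n = 4), a log2 fold change of 0.13 with a 95% interval of −0.13 to 0.38. Il17rc encodes the partner subunit that IL-17A and IL-17F need (ENSMUSG00000030281, chromosome 6, 113471427 to 113483140, plus strand). Its values were 92.2, 73.2, 83.5 and 82.8 CPM in SPF and 98.4, 68.8, 70.4 and 75.1 CPM in germ-free libraries, with germ-free 1 the highest of the 8. The log2 fold change was −0.08 (95% interval −0.34 to 0.17), and it was 0.06 without germ-free 2 and 3. Within a library Il17rc gave 2.28 to 3.75 counts per count of Il17ra in germ-free and 2.55 to 3.92 in SPF libraries.

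Traf3ip2, the Act1 gene (ENSMUSG00000019842, chromosome 10, 39612934 to 39655307, plus strand), was at 67.6, 58.4, 58.7 and 70.6 CPM in SPF and 55.7, 64.8, 60.1 and 58.3 CPM in germ-free libraries. The ranges overlapped, with germ-free 1 the lowest of the 8 libraries. In the annotation 7.95% of its exon bases are also exon bases of E130307A14Rik on the opposite strand. Its log2 fold change was −0.10 (95% interval −0.31 to 0.12). For these 3 genes the adjusted p lay between 0.614 and 0.752. Taken over the 3 genes, the 95% intervals reached from −0.34 to 0.38.

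Il22ra1 encodes the ligand-specific subunit of the IL-22 receptor, found largely on epithelial cells (ENSMUSG00000037157, chromosome 4, 135728172 to 135752140, plus strand). It stood at 13.4, 14.3, 14.4 and 20.4 CPM in SPF and at 12.4, 8.78, 9.72 and 10.5 CPM in germ-free libraries. Every germ-free library lay below every SPF library, narrowly for germ-free 1, and SPF 5 stood above the other SPF libraries. The log2 fold change was −0.60 ± 0.20 (SE; 95% interval −1.02 to −0.18; unadjusted p = 0.00856), which did not pass over all genes (adjusted p = 0.105), and it was −0.44 without SPF 5. Il10rb, the subunit shared with the receptors for IL-10 and interferon lambda (ENSMUSG00000022969, chromosome 16, 91406164 to 91425834, plus strand), was at 8.65, 13.8, 14.4 and 12.9 CPM in SPF and 9.93, 14.1, 11.3 and 8.73 CPM in germ-free libraries. These values overlapped throughout, and the log2 fold change was −0.18 (95% interval −0.65 to 0.29). In the annotation 14.9% of the exon bases of Il10rb are also exon bases of the gene model Gm21970 on the same strand, so its count is less certain than the others.

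Stat3 encodes the transcription factor that IL-22, IL-6 and related cytokines activate (ENSMUSG00000004040, chromosome 11, 100885098 to 100939540, minus strand). It stood at 270.5, 260.6, 245.9 and 269.2 CPM in SPF and at 207.9, 212.7, 216.8 and 213.0 CPM in germ-free libraries. The fall was small and even. The germ-free libraries varied by a coefficient of variation of 1.71% and the SPF libraries by 4.33%, the lowest of the 9 genes in both groups. The log2 fold change was −0.30 ± 0.07 (SE; 95% interval −0.46 to −0.14; adjusted p = 0.0354 by edgeR's quasi-likelihood test). Leaving out any one of the 7 libraries besides germ-free 2 took the adjusted p above 0.05 (0.0553 to 0.0957), with the log2 fold change between −0.33 and −0.29. Stat3 shares 0.756% of its exon bases with Stat5a on the opposite strand.

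Socs3, the inhibitor that STAT3 induces and that blocks further signalling (ENSMUSG00000053113, chromosome 11, 117966079 to 117970047, minus strand), differed the other way. It was at 76.0, 58.1, 97.8 and 73.9 CPM in SPF and at 113.8, 127.0, 109.4 and 190.8 CPM in germ-free libraries. Every germ-free library lay above every SPF library, and germ-free 4 was the highest. The means were 76.5 ± 16.3 and 135 ± 37.8 CPM, and the log2 fold change was 0.82 ± 0.21 (SE; 95% interval 0.34 to 1.31). The adjusted p was 0.0724 by edgeR's quasi-likelihood test, so the gene was not called by it, and DESeq2's Wald test, which called 8.50% of its genes, called it with an adjusted p of 0.000555. The log2 fold change was 0.61 without germ-free 4. The authors' deposited table also called it, with an adjusted p of 0.00129 and a log2 fold change of −0.82 for SPF over germ-free. That table called 3 of the 9 genes, Stat3, Socs3 and Steap4, where it called 5.21% of its 22819 genes with an adjusted p. Those include genes that the filter on low counts removed here, so this share is not over the same genes as the others. Counts of Socs3 per count of Stat3 ran from 0.223 to 0.398 in SPF and from 0.505 to 0.896 in germ-free libraries, with no overlap.

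**Figure D2:**
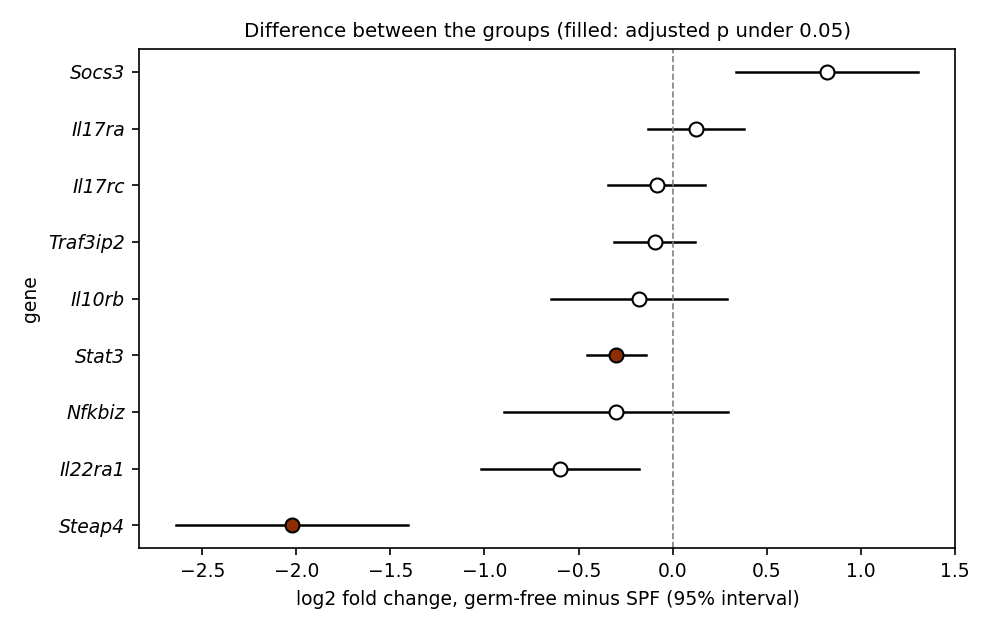
Log2 fold change of germ-free minus SPF (horizontal axis) for each of the 9 genes, with its 95% interval from the edgeR fit; filled points have an adjusted p under 0.05. Steap4 at −2.02 lay farthest from 0, the interval of Stat3 was the narrowest, and the intervals of Il17ra, Il17rc, Traf3ip2, Il10rb and Nfkbiz included 0.

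Nfkbiz is an early target of IL-17 and also of Toll-like and IL-1 receptors (ENSMUSG00000035356, chromosome 16, 55811375 to 55838899, minus strand). It stood at 148.6, 170.3, 257.2 and 257.1 CPM in SPF and at 125.9, 140.8, 182.0 and 228.8 CPM in germ-free libraries. The values overlapped widely and varied strongly within each group. The log2 fold change was −0.30 ± 0.25 (SE; 95% interval −0.89 to 0.29; adjusted p = 0.580 by edgeR's quasi-likelihood test). With a replicate block by source name number, a pairing the labels do not state, it was −0.30 ± 0.08 (SE; adjusted p = 0.0509 by edgeR). With a block by title number it was −0.11 ± 0.10 (SE; adjusted p = 0.608 by edgeR). The immediate early gene Fos, which tissue handling also induces, was at 238, 533, 1250 and 658 CPM in SPF libraries 1, 3, 4 and 5 and at 508, 668, 895 and 1030 CPM in germ-free libraries 1 to 4. Its part in the spread of Nfkbiz was not tested.

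Steap4 encodes a membrane protein that reduces iron and copper ions and that IL-17 induces in epithelial cells (ENSMUSG00000012428, chromosome 5, 7960457 to 7982213, plus strand). It stood at 22.8, 27.2, 31.4 and 36.3 CPM in SPF libraries 1, 3, 4 and 5, from 224, 398, 411 and 499 counts. In germ-free libraries 1 to 4 it stood at 4.71, 4.69, 11.3 and 8.27 CPM, from 64, 71, 177 and 89 counts. The ranges were far apart, and germ-free 3 was the highest of its group. The log2 fold change was −2.02 ± 0.28 (SE; 95% interval −2.64 to −1.41; adjusted p = 0.00334 by edgeR's quasi-likelihood test). With any library left out it stayed called, at −2.34 to −1.86, and without germ-free 2 and 3 together it was −2.21 (adjusted p = 0.00315). Counts of Steap4 per count of Nfkbiz were 0.153, 0.160, 0.122 and 0.141 in SPF libraries and 0.0374, 0.0333, 0.0622 and 0.0361 in germ-free libraries.

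The other genes of the STEAP family, which encode related metalloreductases and the reductase-like Steap1, were measured beside it. Steap2 had means of 25.6 ± 3.96 (SPF) and 28.8 ± 3.08 CPM (germ-free) (log2 fold change 0.17, 95% interval −0.13 to 0.48). Steap3 was at 2.1 and 3.42 CPM and Steap1 at 4.82 and 4.69 CPM. Steap3 lay higher in every germ-free than in every SPF library (log2 fold change 0.70), but was not called (adjusted p = 0.312 by edgeR). Steap4 was the only call among the 4 STEAP genes. The log2 ratio of Steap4 to Steap2 was 0.20 in SPF and −2.09 in germ-free libraries on average.

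STEAP4 RNA is also known from fat cells, pericytes and other stromal cells, so their markers are given beside it. The 12 fibroblast markers summed to 71.4 to 110 CPM in SPF and 101 to 810 CPM in germ-free libraries, and the 10 endothelial markers to 4.52 to 11.2 and 15.8 to 137 CPM. The 10 pericyte and smooth muscle markers in the table summed to 206 to 216 CPM in SPF and 196 to 257 CPM in germ-free libraries, most of it from Notch3 and Cspg4, and the defining pericyte gene Rgs5 lay between 0.0728 and 1.76 CPM in SPF and 1.69 and 14.5 CPM in germ-free libraries. Of 8 adipocyte markers 4 were in the table, with sums of 0.821 to 3.36 CPM in SPF and 3.53 to 27.9 CPM in germ-free libraries. Of these Fabp4, which capillary endothelium also expresses, lay between 0.0684 and 0.458 CPM in SPF and 2.13 and 24.1 CPM in germ-free libraries, and Plin1, the coat protein of fat droplets, was at 0 in all 4 SPF libraries and at most at 0.368 CPM in germ-free ones. Endothelial and adipocyte sums were higher in every germ-free than in every SPF library, while fibroblast and pericyte sums overlapped. Dcn, at 28.4 to 40.8 CPM, and Thy1, at 23.2 to 25.8 CPM, were a large part of the SPF fibroblast sums. Thy1 was lower in every germ-free library (10.5 to 19.4 CPM). Col1a1 was higher in each, at 5.59 to 82.1 CPM against 0.204 to 4.28 CPM in SPF, and the other fibroblast markers overlapped. Germ-free 3, with the highest fibroblast, endothelial and adipocyte sums, also had the highest Steap4 of its group, and without it the log2 fold change of Steap4 was −2.34. Any part of these cell types in the Steap4 counts was not tested. T and innate lymphoid cell markers, of which 10 of 12 were in the table, summed to 6.55 to 10.8 CPM in SPF and 4.56 to 32.9 CPM in germ-free libraries, highest in germ-free 2.

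**Figure D3:**
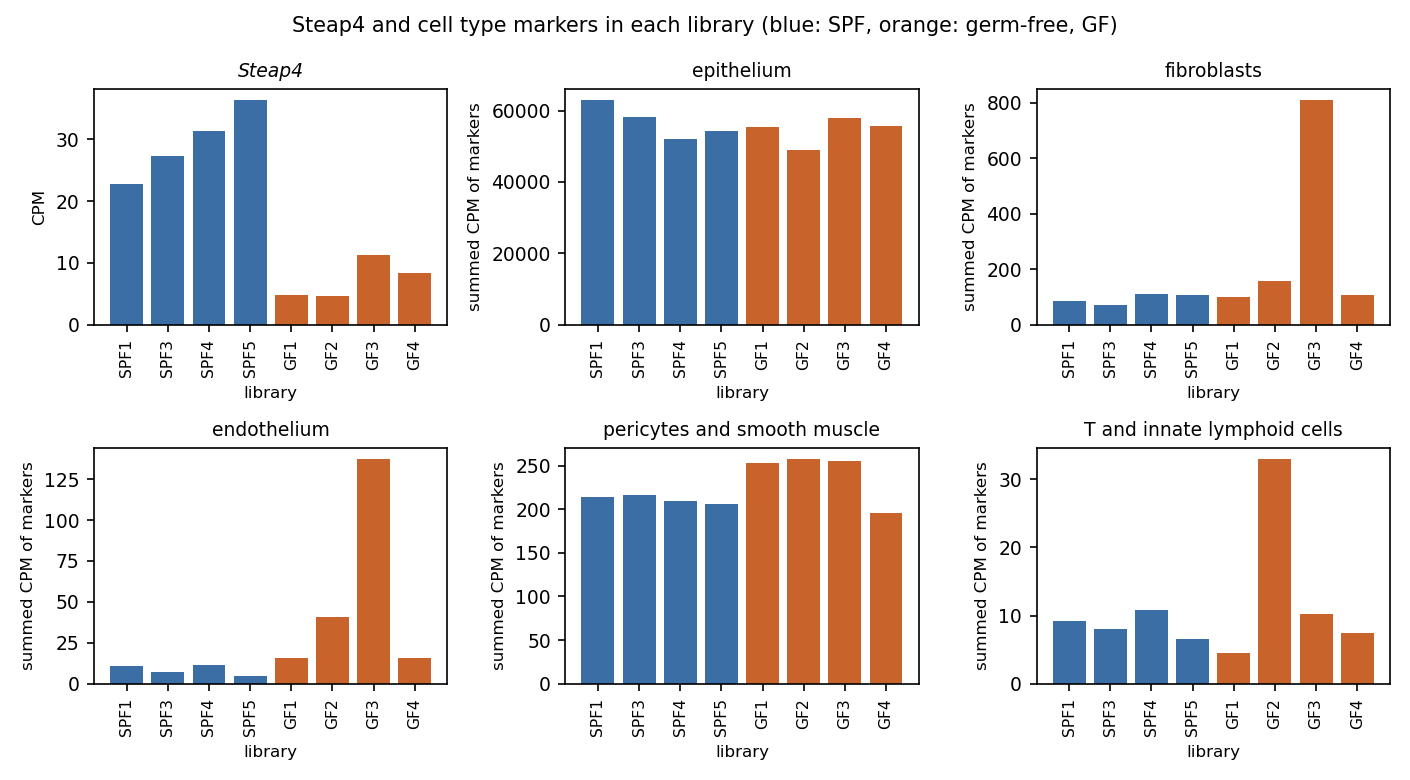
Steap4 (CPM) and the summed CPM of markers of 5 cell types (vertical axes, from 0) in each SPF (blue) and germ-free (orange, GF) library. Steap4 stood at 22.8 CPM or more in SPF and 11.3 CPM or less in germ-free libraries, while fibroblast and endothelial sums peaked in germ-free 3 at 810 and 137 CPM and the T and innate lymphoid cell sum in germ-free 2 at 32.9 CPM.

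The windows around the start sites are shown for the genes that were called and for Socs3, a known direct target of STAT3. RefSeq (GRCm38.p6) gave a window of 250 bases before to 50 after the start for 5 of the 9 genes, Il17rc, Il22ra1, Stat3, Socs3 and Steap4. Both strands were searched for the STAT palindrome TTCNNNGAA, the C/EBP pattern TTNNGNAAT and the NF-kB consensus site, and matches, none of which overlap, are in capitals. The windows lie at chr5:7960222-7960521 on the plus strand for Steap4, and at chr11:117969317-117969616 and chr11:100939491-100939790 on the minus strand for Socs3 and Stat3.
Steap4: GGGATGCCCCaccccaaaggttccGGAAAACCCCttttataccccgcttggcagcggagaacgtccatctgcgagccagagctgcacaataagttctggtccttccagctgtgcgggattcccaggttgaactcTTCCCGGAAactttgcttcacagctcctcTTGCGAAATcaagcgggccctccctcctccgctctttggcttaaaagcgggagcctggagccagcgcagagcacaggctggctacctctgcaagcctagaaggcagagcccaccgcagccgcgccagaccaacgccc
Socs3: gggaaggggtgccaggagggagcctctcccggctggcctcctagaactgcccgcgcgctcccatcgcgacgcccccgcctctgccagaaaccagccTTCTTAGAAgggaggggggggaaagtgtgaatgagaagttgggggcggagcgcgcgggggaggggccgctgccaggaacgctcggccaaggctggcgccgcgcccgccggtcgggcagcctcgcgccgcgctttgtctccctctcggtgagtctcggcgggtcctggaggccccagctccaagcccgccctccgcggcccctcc
Stat3: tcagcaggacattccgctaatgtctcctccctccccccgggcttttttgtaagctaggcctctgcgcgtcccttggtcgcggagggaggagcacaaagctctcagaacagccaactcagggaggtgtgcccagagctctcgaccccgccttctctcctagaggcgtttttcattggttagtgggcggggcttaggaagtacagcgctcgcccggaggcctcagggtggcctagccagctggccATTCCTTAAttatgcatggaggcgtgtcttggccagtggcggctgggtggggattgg
The Steap4 window holds the STAT palindrome TTCCCGGAA at −116 from the start, the C/EBP pattern TTGCGAAAT at −87, and NF-kB matches at −250 and −226. The Socs3 window holds the STAT palindrome TTCTTAGAA at −154. That window lies within the annotated span of Socs3, which on its minus strand begins at 117970047. The position thus counts from the RefSeq start and not from the beginning of that span. The Stat3 window holds a C/EBP match alone. Of the windows not shown, that of Il22ra1 holds an NF-kB match alone and that of Il17rc no match. Of 32851 mouse windows of this length 8.30% held the STAT pattern, 8.46% the NF-kB site and 11.5% the C/EBP pattern. All 3 kinds were held by 0.10%, as by that of Steap4. The Steap4 window was shown because the gene was called, so this share is no test of it. A match of letters is a description of the window and not a measured site.

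Levels of different genes were set side by side per length of merged exons. In SPF libraries Nfkbiz stood highest, at 41.5 ± 11.4 CPM per kilobase (kb), followed by Il17rc (31.1 ± 2.91), Stat3 (27.5 ± 1.19), Socs3 (26.5 ± 5.65) and Traf3ip2 (17.3 ± 1.69). Steap4 (9.33 ± 1.83), Il22ra1 (6.08 ± 1.25), Il10rb (3.27 ± 0.683) and Il17ra (3.07 ± 0.269) followed. Neighbours in this order had overlapping ranges except Socs3 above Traf3ip2, Traf3ip2 above Steap4, and Il22ra1 above Il10rb. In germ-free libraries Socs3 moved from the fourth place to the top, at 46.8 ± 13.1 CPM per kb, though its range overlapped that of Nfkbiz below it. Steap4 moved from the sixth place to the last, at 2.30 ± 1.01 CPM per kb, though its range overlapped that of Il10rb above it.

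**Figure D4:**
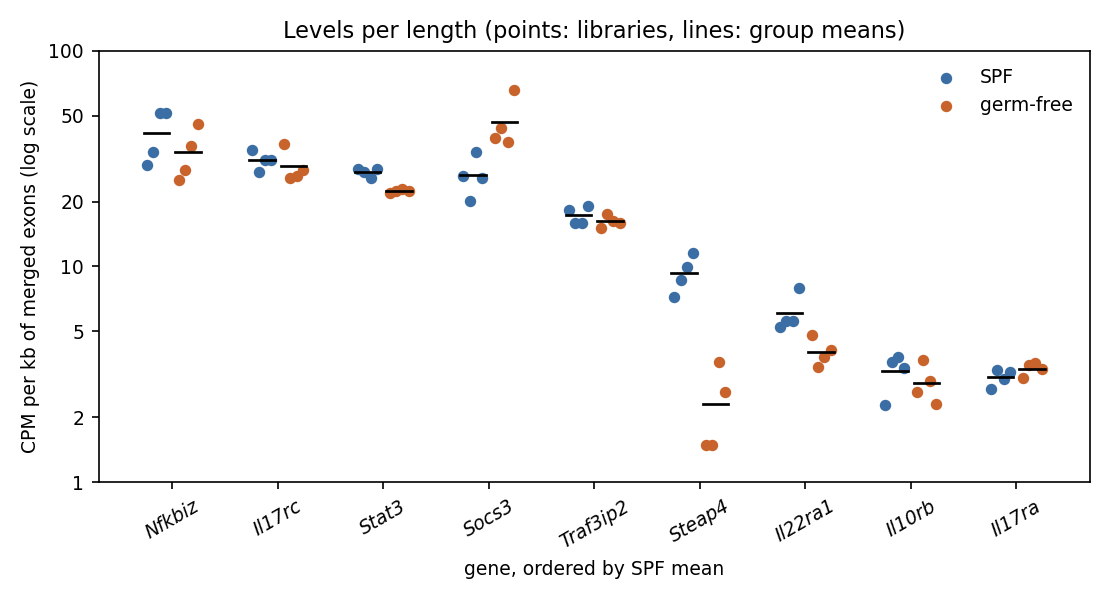
CPM per kb of merged exons (vertical log axis) of the 9 genes, ordered by their SPF mean; points are the 4 SPF (blue) and 4 germ-free (orange) libraries and black lines the group means. Nfkbiz, Il17rc, Stat3, Socs3 and Traf3ip2 stood above 15 in every library, and Il22ra1, Il10rb and Il17ra below 8, and Steap4 lay just above Il22ra1 in SPF and had the lowest mean in germ-free libraries.

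The wider pathway was read from lists of named genes. Of 17 ligand genes 8 were in the table and 3 passed the filter, with 0 called by edgeR. At an unadjusted p under 0.05 there was 1, where 19.5% of all tested genes were below it. That gene was Il23a, a subunit of IL-23, which sustains IL-17-producing T cells, at 0.305 to 4.22 CPM in SPF and 0.33 to 1.11 CPM in germ-free libraries (log2 fold change −1.86, adjusted p = 0.139). The ranges overlapped through SPF 1, and without that library 1 ligand was called. Il17f had 7 counts in the 4 SPF and 14 in the 4 germ-free libraries together, and Il17a and Il22 were not found by name in the table. Lif, a cytokine that signals through STAT3, had SPF and germ-free means of 4.77 and 2.86 CPM and did not pass (adjusted p = 0.291). Of 15 other receptor genes 11 were tested and 0 called by edgeR. For 2 of the 11 the unadjusted p was under 0.05, a share of 18.2%, near that of all genes. Il6st, which encodes the shared subunit gp130 of the IL-6 family receptors, had means of 182 ± 27.9 and 205 ± 31.2 CPM (log2 fold change 0.17, 95% interval −0.10 to 0.44). Il17re, the epithelial receptor subunit for IL-17C, was at 40.9 and 43.1 CPM.

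Of 25 genes of IL-17 signal transduction, all of them tested, 1 was called, near the 4.18% called over all tested genes. Ikbke, a kinase that phosphorylates Act1, averaged 64.6 ± 6.48 CPM in SPF and fell to 43.6 ± 1.86 CPM (−0.57 ± 0.10 on the log2 scale, adjusted p = 0.00791 by edgeR). It stood at 57.0 to 71.9 CPM in SPF and 41.9 to 45.9 CPM in germ-free libraries, with no overlap. Srsf1, a splicing factor that binds IL-17 target mRNA, had means of 299.5 and 273.3 CPM and did not pass (adjusted p = 0.407). The Ikbke call ended without germ-free 2 and 3 together (−0.59, adjusted p = 0.0625), and 2 genes of the list were called by DESeq2 or without germ-free 1. Fits with a replicate block by title number or by source name number called 4 and 5 genes of the list, and 315 and 886 over all genes. The median log2 fold change of the list was 0.04, and that of all genes 0.02.

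Among 22 tested JAK and STAT genes 1 was called, also near the 4.18% called over all tested genes. Cish, a feedback inhibitor that STAT5 induces, averaged 65.2 ± 13.4 CPM in SPF and fell to 37.2 ± 7.61 CPM (−0.81 ± 0.16 on the log2 scale, adjusted p = 0.0174 by edgeR), a call that ended without germ-free 3 or germ-free 4. Its values were 55.1 to 83.7 CPM in SPF and 31.0 to 48.0 CPM in germ-free libraries, the opposite order to Socs3. Jak1, a kinase of the IL-22 and IL-6 receptors, was at 237 ± 12 and 209 ± 10.7 CPM and did not pass (log2 fold change −0.18, adjusted p = 0.216).

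Of 34 genes known as targets of IL-17 and IL-22 in epithelia 25 were in the table and 10 passed the filter. Of these 10 genes 2 fell, where 2.33% of all tested genes were called lower. The list was chosen with earlier results of these data known. The median log2 fold change of the 10 was −0.805, over tested genes alone. Il1f9, which encodes the epithelial cytokine IL-36 gamma, averaged 23.8 ± 6.67 CPM in SPF and fell to 10.3 ± 2.21 CPM (−1.22 ± 0.22 on the log2 scale, adjusted p = 0.00791 by edgeR), a call that ended without germ-free 2 and 3 together. Krt6b, a keratin of stressed and oral epithelium, averaged 73.0 ± 18.8 CPM in SPF and fell to 27.7 ± 8.43 CPM (−1.39 ± 0.24 on the log2 scale, adjusted p = 0.0172). The Krt6b call ended when germ-free 2, germ-free 4, SPF 3 or SPF 4 was left out. Its close paralog Krt6a, which can share reads with it, was at 891 ± 319 and 769 ± 84.9 CPM and did not pass (adjusted p = 0.753), with SPF 1 far below the rest at 415 CPM. Without SPF 1, 5 genes of this list were called, Krt6a among them, and 1 was called when any of the libraries that ended the Krt6b call was left out. The other 15 targets in the table did not pass the filter, which needs about 10 counts in at least 4 libraries. A gene absent from germ-free libraries failed it where any SPF library was low, even with many counts in the others. Summed counts of these 15 were higher in SPF for 10 and higher in germ-free libraries for 5, with examples of both chosen after their values were seen. S100a8, a calprotectin subunit, had 0, 11, 133 and 133 counts in SPF libraries 1, 3, 4 and 5 and 0 in each germ-free library. S100a9 had 3, 47, 258 and 159 counts in SPF and 1, 0, 0 and 0 in germ-free libraries. Lcn2, the iron-binding lipocalin, had 1, 7, 60 and 47 counts in SPF and 10, 0, 5 and 9 in germ-free libraries. Of 10 neutrophil markers 4 were in the table, with sums of 15.1 to 68.3 CPM in SPF and 9.5 to 40.9 CPM in germ-free libraries. Any part of neutrophils in the counts of S100a8, S100a9 and Lcn2 was not tested. Mmp3, a matrix protease, had 1, 0, 2 and 0 counts in SPF and 6, 3, 36 and 7 in germ-free libraries, and Defb4, a beta-defensin, had 27 counts in germ-free 2 and 0 in the other germ-free libraries.

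Of 18 tested STAT3 target genes 3 fell and 1 rose, where 2.33% of all tested genes were called lower and 1.85% higher. This list too was chosen with earlier results known. Hif1a, the hypoxia factor, averaged 329 ± 42.0 CPM in SPF and fell to 212 ± 6.25 CPM (−0.64 ± 0.09 on the log2 scale, adjusted p = 0.00275 by edgeR). Il4ra, the IL-4 receptor chain, fell to 28.7 ± 4.71 CPM from an SPF mean of 50.7 ± 7.33, a call that ended without germ-free 2 and 3 together. Birc5, which encodes the mitotic and survival protein survivin, fell to 28.4 ± 10.2 CPM from an SPF mean of 64.6 ± 9.51 (adjusted p = 0.0278). Ccnd1, which encodes cyclin D1, averaged 117 ± 5.99 CPM in SPF and rose to 249 ± 52.8 CPM (1.08 ± 0.13 on the log2 scale, adjusted p = 0.00106). Fos did not pass (adjusted p = 0.870), and the median of the list was 0.06. The Birc5 call ended without SPF 3, SPF 4, SPF 5 or germ-free 3. Birc5 is also a cell cycle gene and Hif1a and Ccnd1 have many other regulators, so the list is not specific to STAT3.

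**Figure D5:**
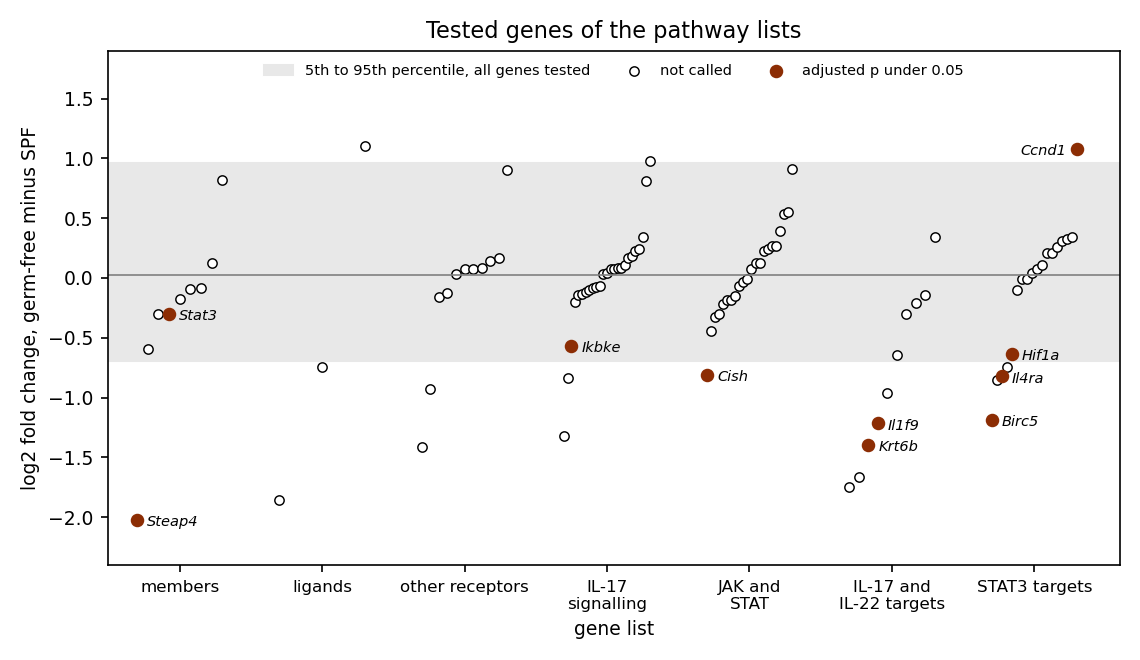
Log2 fold change of germ-free minus SPF (vertical axis) of every tested gene in each list (horizontal axis), sorted within the list; filled points, with names, have an adjusted p under 0.05, the grey line is the median of all tested genes and the band runs from their 5th percentile, −0.69, to their 95th, 0.96. Steap4 at −2.02 lay lowest of the 9 genes, and 5 of the 10 tested targets of IL-17 and IL-22 lay below the band.

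The 5 genes whose log2(CPM + 1) followed Steap4 most closely over the 8 libraries were Kat5, a histone acetyltransferase gene, Gadd45gip1, Apopt1, Krt6b and Sarnp, with Pearson's r of 0.962 to 0.976. After the group means were taken off, r was 0.726 to 0.918. Krt6b, at 48.5, 72.8, 76.4 and 94.2 CPM in SPF and 21.8, 24.8, 40.2 and 24.1 CPM in germ-free libraries, had the same order as Steap4 among SPF libraries and its germ-free peak in the same library, germ-free 3. The other 4 had log2 fold changes of −0.31 to −0.19 and did not pass. Among them Kat5, at 51.8, 52.1, 53.7 and 54.8 CPM in SPF libraries, had the same SPF order. It too peaked in germ-free 3, at 49.9 CPM. Its r was 0.976, and 0.918 without the group means, against 0.967 and 0.819 for Krt6b. The 8 points share the group difference and the scaling, and the likeness is a description.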

How the data were processed

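Raw counts per gene for the 8 libraries were in a table the authors deposited, per the file headers. The submitters' processing notes name, without role or order, the genome build GRCm38, DESeq2 1.22.2, HTSeq 0.6.0, TopHat2 2.1.1, cutadapt 1.18 and bcl2fastq 2.18.0.12. No source used here states the strand setting, so exons shared with other genes make a count less certain. The authors' log2 fold changes and the authors' adjusted p-values were taken from the deposited table where named.

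Genes were kept by filterByExpr (minimum count 10, minimum total 15), scaled by TMM and tested with edgeR 4.0.16 (glmQLFit, robust, two-sided F test, group as the only term) in R 4.3.3, with Benjamini-Hochberg adjustment over 15098 genes. SEs and 95% intervals came from the F statistic and its degrees of freedom. Library totals of 10260264 to 15524731 counts set the precision, and 3 counts corresponded to 0.192 to 0.305 CPM. Exon lengths came from GENCODE M21, whose coordinates equalled those of the table for the 9 genes. The procedure was tested on simulated data. Alternatives used DESeq2 1.42.0, limma 3.58.1, other scalings and filters, replicate blocks and fits with libraries left out.

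The genes and lists were chosen with earlier results of these data known. Named genes were the 9 genes, the called genes of each list, up to 6 by smallest p, its uncalled gene with the highest mean CPM, the 5 named gene models closest to Steap4, and defining cell type markers. Il23a, Il17re, Il17f, Steap1, Steap3, S100a8, S100a9, Lcn2, Mmp3, Defb4, Col1a1, Dcn and Thy1 were named after their values were seen.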

Additional observations from a re-analysis of the deposited data

Results flagged for a closer look

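Of 56 sets of 4 libraries checked for the named genes, 3 held a library far from the other 3 of its group by Dixon's criterion, where chance gives about 1 in 20. Il22ra1 was at 20.4 CPM in SPF 5, where the other SPF libraries held 13.4 to 14.4 CPM. Krt6b was at 40.2 CPM in germ-free 3, where the others held 21.8 to 24.8 CPM. Krt6a was at 415 CPM in SPF 1, where the others held 1019 to 1097 CPM.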

How the results depend on the processing

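Steap4 was called in all 17 alternatives, with a log2 fold change of −2.34 to −1.81. The number of the 9 genes called was 3 by DESeq2, which added Socs3, 1 to 2 with 1 library left out, and 1 without germ-free 2 and 3 together, an alternative chosen after seeing the data. Stat3 kept its direction in all 17 and its call in 8, with −0.33 to −0.29 when 1 library was left out and −0.32 (adjusted p = 0.133) without germ-free 2 and 3. The count over all genes was 1257 by DESeq2, 1023 by limma voom, 157 without germ-free 2 and 3, and 284 to 688 with 1 library left out. The labels do not say that replicate numbers mark a shared source, and under neither numbering was every pair's correlation of deviations above 0.1. It was −0.08 to 0.19 by title number, with 2 of 6 libraries closest to their own number. By source name number it was 0.192, 0.168, 0.11 and 0.0735, with 5 of 8 closest to their own, a hint of pairing from the data and not from the design. A replicate block by title number (6 libraries) called 315 genes and 2 of the 9, Socs3 and Steap4, with Stat3 at −0.30 (adjusted p = 0.141), Ikbke at −0.54 (0.0549), Il4ra at −0.70 (0.0649), Birc5 at −1.43 (0.113), Il6st at −0.0087 and Krt6a at 0.043. A block by source name number called 886 genes and, of the 9, Stat3 and Steap4. Of the 25 IL-17 signalling genes the blocks by title and source name number called 4 and 5. Of the 18 STAT3 targets they called 2 and 5, where over all genes they called 315 and 886. The nearness of the IL-17 signalling list to the share over all genes thus held in the main fit and not under the blocks. Of the 22 JAK and STAT genes 2 were called by DESeq2, by limma voom and without germ-free 1. Uncalled differences near 0 changed sign for Il17rc, at 0.058 without germ-free 2 and 3, and for Fos, at −0.082 to 0.70 with 1 library left out. The cause was not tested. Fewer libraries were fitted in each fit with libraries left out.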
